A study of Mus musculus with 6 samples.

Results

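The pro-apoptotic genes of the BCL2 family were compared between natural killer (NK) cells of mice given cytokine complexes of IL-15 and of IL-2. The genes were chosen by name: the rows of Bax, Bak1, Bcl2l11, Bbc3, Pmaip1, Bid, Bad, Bmf and Bik were taken from the table of each library, and all 9 were found among 24343 genes. They were split by role into 2 effectors, Bax and Bak1, and 7 BH3-only genes. The sort from spleens of female C57BL/6 mice took cells with NK1.1 and NKp46 that lacked CD3 and did not bind the CD1d tetramer. One group had received IL-15 cytokine complexes (IL-15C, 3 libraries) and the other IL-2 cytokine complexes (IL-2C, 3 libraries); dose, time, age and carrier protein are not given in the labels. No untreated cells enter the comparison, which sets one treatment against the other, and the labels do not say whether libraries came from separate mice. P-values therefore measure the spread between these libraries, which may be technical.

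Proteins of the BCL2 family decide whether the outer mitochondrial membrane is breached and cytochrome c released. BAX and BAK form the pores, anti-apoptotic members such as BCL-2, BCL-XL and MCL-1 hold them in check, and BH3-only proteins start the process by binding the anti-apoptotic members or the effectors themselves. In mouse NK cells, IL-15 is known as a survival cytokine that acts through MCL-1, with BIM (Bcl2l11) and NOXA (Pmaip1) as the opposing BH3-only proteins.

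The libraries held an implied 23543141 to 27229145 fragments each. That number was read from the interval deposited with every FPKM value (fragments per kilobase of transcript, scaled to the mapped fragments of the library), and it is approximate for genes with several isoforms. Levels of NK marker genes fitted the label: all 10 listed genes passed the filter, and Ncr1, which encodes NKp46, lay at 755 to 832 FPKM. Of these 10, 0 were higher and 1 was lower in IL-15C, Klre1, a call that held in 1 of 6 omissions of a library, that of IL-15C replicate 1, and ended without the filter (highest limma adjusted p 0.118). At an unadjusted limma p under 0.05 the number was 4 of 10, each lower in IL-15C and among them Klrk1 and Eomes, against 26.9% of all tested genes. Summed levels of 8 B cell markers were 5.05 to 16.7 FPKM in IL-15C and 9.5 to 23.9 in IL-2C. Those of 8 T cell markers were 50.7 to 71.9 and 52.7 to 57.5, of 8 granulocyte markers 40.8 to 110 and 40.7 to 59.9, of 8 myeloid markers 16.4 to 26.9 and 13.04 to 21.3, and of 6 erythroid markers 1.18 to 21.8 and 1.93 to 3.80. None of these markers was at 0 in every library. The T cell sum lay mainly in Cd3g (30.7 to 44.6 FPKM) and Cd3d (15.3 to 22.3). Cd4, Cd8a, Cd8b1, Cd5 and Cd6 were each at 0.277 FPKM or less in every library. IL-15C replicate 1 held the highest T cell, granulocyte, myeloid and erythroid sums, with S100a8 at 42.6 FPKM and Hba-a1 at 12.3. It also had the highest Bax, Bak1 and Bid of all libraries. In the limma test below, 1 of 6 tested granulocyte genes, Retnlg, was higher in IL-15C, and 0 of 3 B cell, 0 of 3 T cell, 0 of 1 myeloid and 0 of 1 erythroid genes passed, with 1, 0, 0 and 0 at an unadjusted p under 0.05. The call of Retnlg also held in 1 of 6 omissions, that of IL-15C replicate 2, and ended without the filter (highest limma adjusted p 0.142). The part of these other cells in the results was not tested.

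Among the 9 genes, Bbc3, which encodes the BH3-only protein PUMA, was the one that differed by the test, and it was lower in IL-15C. Bcl2l11 was slightly lower in IL-15C in every library, and Bak1 and Bid were higher in every library, but these differences did not pass. Bax, Pmaip1, Bad, Bmf and Bik had overlapping groups. The test was limma's moderated test on log2(FPKM + 1), run on the 9831 genes with a mean of at least 1 FPKM over the 6 libraries and adjusted by Benjamini-Hochberg. Bik did not pass that filter, which left 8 members. Of them, 0 were higher and 1 was lower at an adjusted p under 0.05, where 1.72% and 4.72% of all tested genes were, 6.44% in all. That split of all genes, 169 higher and 464 lower, turned to 325 and 207 after scaling to a common median and to 307 and 269 after quantile normalization. At an unadjusted p under 0.05 the number was 4 of 8, against 26.9% of all tested genes. Groups did not overlap for 4 of the 8, 2 higher and 2 lower in IL-15C, against 33.3% of all tested genes, 8.15% higher and 25.1% lower, so neither count stands far from the background for so few genes.

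**Figure D1:**
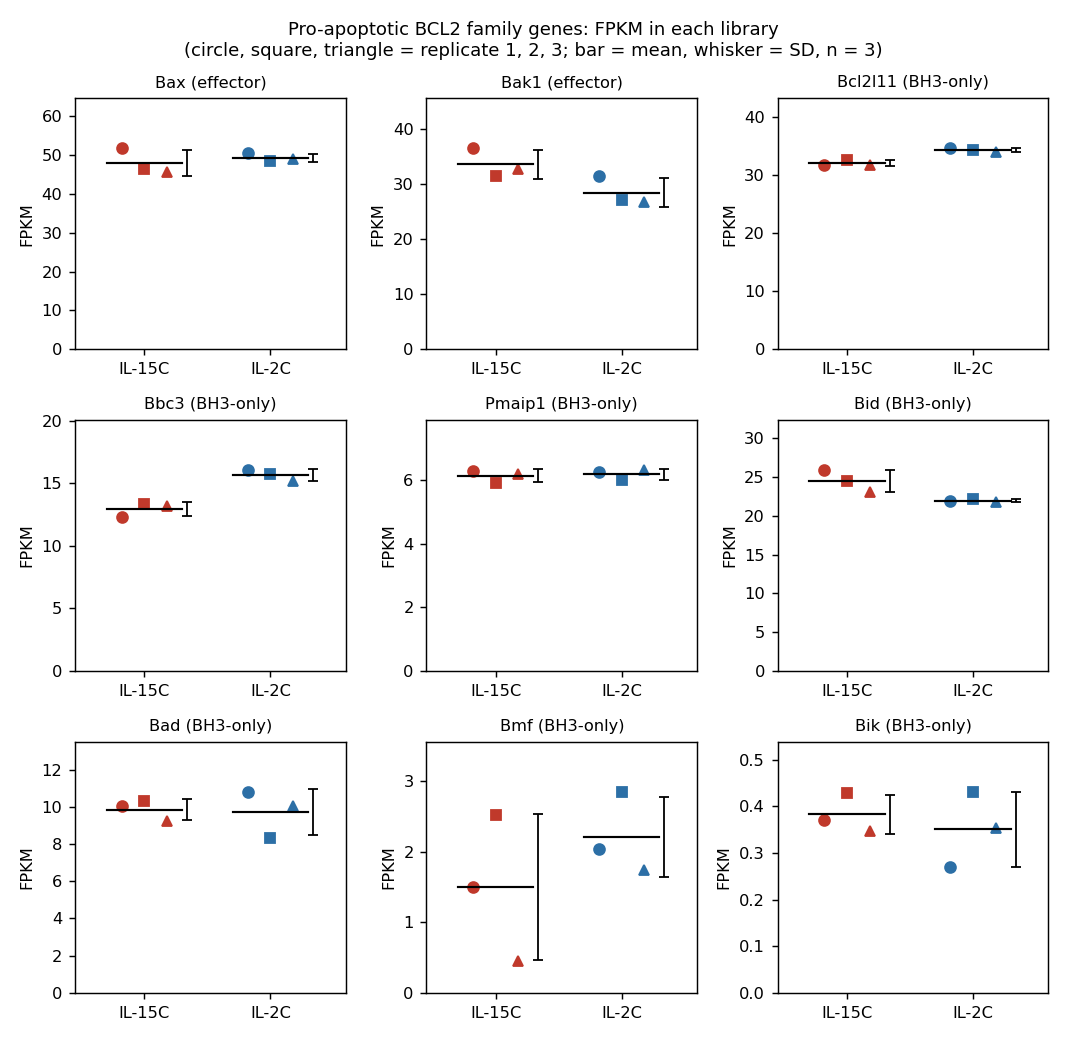
Level of each of the 9 genes in FPKM (vertical axes from 0, a scale of its own for each panel) in the 3 IL-15C libraries (red) and the 3 IL-2C libraries (blue). Circles, squares and triangles are replicates 1, 2 and 3, bars are means and whiskers are SD. Bbc3 and Bcl2l11 lie lower in all IL-15C libraries, Bak1 and Bid lie higher, and Bmf is at 0.457 FPKM in IL-15C replicate 3.

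The 4 genes whose groups did not overlap are shown by their promoter sequence. Of these, Bbc3 alone passed the test, and 33.3% of all tested genes likewise had groups without overlap. Each line gives the 250 bases before the annotated start, 5′ to 3′ on the gene's strand, from RefSeq on GRCm38.p6, which has the coordinates of mm10. The windows are chr7:16309333-16309582 (plus strand) for Bbc3, chr2:128125788-128126037 (plus strand) for Bcl2l11, chr17:27028628-27028877 (minus strand) for Bak1 and chr6:120916825-120917074 (minus strand) for Bid. Capitals mark the single match found to any of the 3 motifs searched.
Bbc3: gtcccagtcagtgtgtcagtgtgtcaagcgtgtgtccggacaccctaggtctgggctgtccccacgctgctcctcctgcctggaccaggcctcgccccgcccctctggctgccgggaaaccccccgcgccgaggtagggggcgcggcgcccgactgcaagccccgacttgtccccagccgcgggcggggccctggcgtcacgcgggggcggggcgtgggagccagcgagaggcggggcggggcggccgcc
Bcl2l11: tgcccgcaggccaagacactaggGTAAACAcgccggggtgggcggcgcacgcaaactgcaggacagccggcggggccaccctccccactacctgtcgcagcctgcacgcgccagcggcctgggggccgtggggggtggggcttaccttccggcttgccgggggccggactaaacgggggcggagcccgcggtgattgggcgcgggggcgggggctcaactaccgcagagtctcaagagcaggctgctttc
Bak1: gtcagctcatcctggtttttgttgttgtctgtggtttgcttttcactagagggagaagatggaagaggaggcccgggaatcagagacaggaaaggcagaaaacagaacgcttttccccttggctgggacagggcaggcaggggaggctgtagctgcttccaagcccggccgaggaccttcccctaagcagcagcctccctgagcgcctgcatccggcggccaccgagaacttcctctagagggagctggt
Bid: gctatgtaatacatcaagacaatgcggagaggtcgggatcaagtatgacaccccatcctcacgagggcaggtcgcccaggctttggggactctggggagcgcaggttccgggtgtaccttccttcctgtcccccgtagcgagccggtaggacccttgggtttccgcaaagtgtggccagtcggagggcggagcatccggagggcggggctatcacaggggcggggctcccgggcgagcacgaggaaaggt
The motifs, searched on both strands, were TTCNNNGAA for STAT5, a factor downstream of both cytokines, GTAAACA for FOXO factors, and the p53 half-site. The capitals in the Bcl2l11 window are the FOXO letters, which start 227 bases before the gene's start. A STAT5 match was found in 7.02%, a FOXO match in 3.17% and a p53 half-site match in 7.13% of all 32851 promoter windows of this length. Among the 7 members counted, 0 held the STAT5 letters, 1 the FOXO letters and 1, Bax, the p53 half-site. Pmaip1 and Bik were left out of this count, so it does not say whether their promoters hold a match. The Bbc3 window was 76.4% G and C, the Bcl2l11 window 72.0%, the Bid window 63.6% and the Bak1 window 58.4%. A match of letters is a description and does not show that a factor binds there.

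The effectors were the more abundant class per gene. Bax, the effector that moves from the cytosol to mitochondria, had 51.8, 46.6 and 45.7 FPKM in IL-15C replicates 1, 2 and 3 and 50.6, 48.4 and 49.0 in IL-2C. The IL-15C libraries held both the highest and the lowest value, so the groups overlapped. The difference on the log2(FPKM + 1) scale, IL-15C minus IL-2C, was -0.04 ± 0.05 (SE), with a 95% interval of -0.16 to 0.08 and a limma adjusted p of 0.651. Bax lies on chromosome 7 at 45461695 to 45466898 in mm10. It shares 192 exonic bases with the protein-coding gene Gm45808 on the same strand, for which no level is given here.

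Bak1 encodes BAK, the effector that resides in the mitochondrial membrane and is restrained there by MCL-1 and BCL-XL. It had 36.4, 31.5 and 32.6 FPKM across IL-15C, against 31.4, 27.1 and 26.6 across IL-2C. The groups did not overlap, with IL-15C the higher, though IL-15C replicate 2 and IL-2C replicate 1 nearly met. Mean levels were 33.5 ± 2.59 in IL-15C (SD, n = 3) and 28.4 ± 2.59 in IL-2C, 1.18-fold apart. The log2 difference of 0.23 ± 0.07 had a 95% interval of 0.07 to 0.39 and did not pass (limma adjusted p = 0.0817). It did pass under each of 3 other scalings of the libraries, with adjusted p of 0.0387 after scaling to a common median, 0.0409 after rescaling to TPM and 0.0396 after quantile normalization. The gene lies on chromosome 17 at 27019812 to 27028626. It shares 614 exonic bases with Ggnbp1 on the opposite strand, which was at 0.114 to 0.233 FPKM.

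The ratio of Bax to Bak1 within a library separated the groups, at 1.42, 1.48 and 1.40 across IL-15C, against 1.61, 1.79 and 1.84 across IL-2C. The ratio was not tested, and of the pair Bak1 alone separated the groups by itself. The summed effector level was 78.1 to 88.2 FPKM in IL-15C and 75.6 to 81.9 in IL-2C. These ranges overlapped.

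The 7 BH3-only genes summed to 84.3 to 89.6 FPKM in IL-15C and 89.3 to 91.9 in IL-2C, ranges that just overlapped. Bcl2l11 made up 36.0% to 38.2% of the sum in every library. The share of Bbc3 was 14.0% to 15.7% in IL-15C and 17.0% to 17.5% in IL-2C, and that of Bid 27.3% to 29.4% and 23.8% to 24.7%. Bbc3 thus held a smaller and Bid a larger part of BH3-only transcripts in all IL-15C libraries, a comparison that does not depend on library scaling. In bulk RNA, fewer cells that transcribe a gene and less transcript per cell cannot be told apart.

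Bbc3 is known as a target of p53 and FOXO3, and PUMA binds every major anti-apoptotic member. Its levels were 12.3, 13.3 and 13.2 FPKM across IL-15C, against 16.0, 15.8 and 15.2 across IL-2C. The closest values of the groups, IL-15C replicate 2 and IL-2C replicate 3, had deposited intervals of 12.6 to 14.1 and 14.4 to 15.9 FPKM that did not meet. Mean levels were 12.96 ± 0.551 in IL-15C (SD, n = 3) and 15.7 ± 0.448 in IL-2C, so the level in IL-2C was 1.21-fold that in IL-15C. The log2 change was -0.26 ± 0.05 with a 95% interval of -0.36 to -0.15, a limma adjusted p of 0.020 and rank 164 of 9831 by p. The call ended with IL-2C replicate 1 left out (adjusted p = 0.0834), with IL-2C replicate 2 left out (0.0915) and with no filter on low genes (0.0678), while the change stayed between -0.28 and -0.20 under every alternative. Bbc3 fell by more than the median tested gene, which was at -0.04, and scaling to a common median left its change at -0.21. The gene spans 16309583 to 16318334 on chromosome 7, and the implied fragments behind the values numbered 1116 to 1263 in IL-15C and 1413 to 1681 in IL-2C.

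The tested genes whose values ran closest to those of Bbc3 over the 6 libraries were Kctd2, Cdyl, which encodes a chromodomain protein, and Zkscan14, which encodes a zinc finger protein. Likeness was the root mean square difference between log2 values centred on each gene's mean. It was 0.0162 for Kctd2, 0.0186 for Cdyl and 0.0224 for Zkscan14, against a median of 0.131 over all tested genes. Kctd2, for example, had 28.4, 31.3 and 30.8 FPKM across IL-15C, against 37.0, 36.5 and 34.2 across IL-2C.

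Bcl2l11 encodes BIM, the BH3-only protein that removes lymphocytes deprived of cytokine. It was the most abundant BH3-only transcript, with 31.7, 32.6 and 31.8 FPKM across IL-15C, against 34.6, 34.3 and 33.9 across IL-2C. All IL-15C values lay below all IL-2C values, and the values within a group lay close together. The SD within groups on the log2 scale was 0.02, at the 1.01 percentile of tested genes. Counting error alone, from the implied fragments, would give a coefficient of variation of 1.96%, which is more than this SD. So close a spread over 3 libraries a group therefore need not be a trait of the gene. The difference was small, 1.07-fold, and did not pass the test (log2 -0.09 ± 0.04, 95% interval -0.18 to -0.01, limma adjusted p = 0.149). Expressed as implied fragments per 1000000 of a library's total, the groups overlapped, at 105, 105 and 101 across IL-15C, against 107, 103 and 99.0 across IL-2C. The separation in FPKM is therefore not seen in the implied fragments, which are not counts and are approximate where a gene has several isoforms. The cause of that gap was not tested. For Bbc3, Bak1 and Bid the groups stayed apart on that scale. Bcl2l11 lies on chromosome 2 at 128126038 to 128162547.

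Bid links death receptors to mitochondria, since caspase-8 cuts it to its active form, and granzyme B can cut it too. Its levels were 25.9, 24.5 and 23.1 FPKM across IL-15C, against 21.9, 22.2 and 21.8 across IL-2C. All IL-15C values were higher, and the IL-2C values were nearly equal to each other. Mean levels were 24.5 ± 1.39 in IL-15C (SD, n = 3) and 22.0 ± 0.183 in IL-2C, 1.11-fold apart. The log2 difference of 0.15 ± 0.05, with a 95% interval of 0.04 to 0.26, did not pass (limma adjusted p = 0.0887). It passed after scaling to a common median (0.0330) and after quantile normalization (0.0402) but not after rescaling to TPM. Bid, on chromosome 6 at 120893119 to 120916820, shares 628 exonic bases with Bcl2l13 on the other strand, which had 13.4 to 14.5 FPKM and a log2 difference of 0.01 ± 0.04. No source used here says whether reads were assigned by strand.

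**Figure D2:**
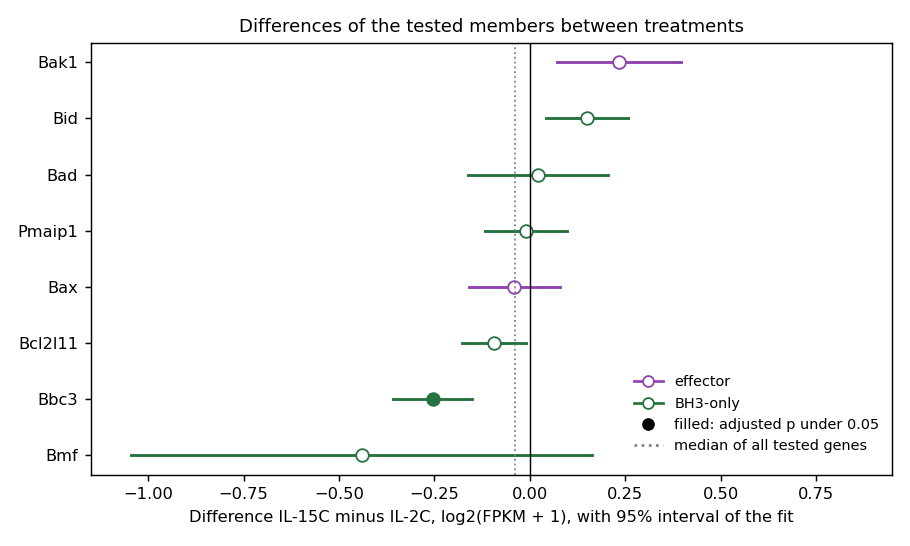
Difference between treatments (IL-15C minus IL-2C, log2(FPKM + 1), horizontal axis) for the 8 tested genes, with the 95% interval of the limma fit; effectors are purple and BH3-only genes green. The filled point, Bbc3 at -0.26, is the one with an adjusted p under 0.05; Bmf has the widest interval, from -1.04 to 0.16, and the dotted line at -0.04 is the median of all tested genes.

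Pmaip1 encodes NOXA, which binds MCL-1 and promotes its degradation. It had 6.29, 5.91 and 6.21 FPKM across IL-15C, against 6.26, 5.99 and 6.31 across IL-2C. This was the narrowest relative range of the 9 genes, with the highest value 1.07-fold the lowest. The coefficient of variation over the 6 libraries was 2.76%, below the 4.03% that counting error alone would give. The range therefore does not show that Pmaip1 is the steadiest of the genes. The groups overlapped almost fully. The log2 difference was -0.01 ± 0.05 (limma adjusted p = 0.909), and its 95% interval of -0.12 to 0.10 bounds the difference in either direction. The gene lies on chromosome 18 at 66458604 to 66465558.

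Bad encodes a BH3-only protein that survival kinases such as AKT keep inactive by phosphorylation. It had 10.02, 10.3 and 9.23 FPKM across IL-15C, against 10.8, 8.35 and 10.04 across IL-2C. IL-2C held the highest and the lowest value. The log2 difference was 0.02 ± 0.08 (95% interval -0.16 to 0.21, limma adjusted p = 0.890). Bad, on chromosome 19 at 6941861 to 6951905, shares 524 exonic bases with Gpr137 on the opposite strand. Gpr137 was at 7.82 to 11.3 FPKM and had a log2 difference of -0.24 ± 0.08 (adjusted p = 0.0856), so a share of reads between the pair would matter for Bad.

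Bmf encodes a BH3-only protein tethered to the cytoskeleton through a dynein light chain, and it varied between libraries more than any other member. It had 1.51, 2.53 and 0.457 FPKM across IL-15C, against 2.05, 2.85 and 1.75 across IL-2C. IL-15C replicate 3 was the low library, and its deposited interval of 0.369 to 0.545 met no other library's. Its 109 implied fragments compare with 328 to 739 in the other libraries. The SD within groups of 0.49 on the log2 scale was at the 99.7 percentile of all tested genes and at the 99.2 percentile of the 1367 genes with a mean of 1 to 3 FPKM. The log2 difference of -0.44 ± 0.27 (95% interval -1.04 to 0.16) did not pass (limma adjusted p = 0.322), and it was -0.10 without IL-15C replicate 3 and -0.73 without IL-15C replicate 2. In each group replicate 2 was highest and replicate 3 lowest. With the replicate number as a block in the fit, the SE was 0.14, and the difference still did not pass (limma adjusted p = 0.109). Bmf lies on chromosome 2 at 118528757 to 118549678.

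Bik encodes a BH3-only protein of the endoplasmic reticulum. At 0.372, 0.429 and 0.348 FPKM across IL-15C, against 0.270, 0.431 and 0.354 across IL-2C, it rested on 10 to 19 implied fragments a library. The groups overlapped. In a fit of 16313 genes without the filter the log2 difference was 0.03 ± 0.05 (limma adjusted p = 0.743). The deposited intervals of the 6 libraries all overlapped. The gene lies on chromosome 15 at 83526862 to 83544635.

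FPKM is scaled by transcript length, so levels were ordered between genes. Agreement between libraries cannot show a bias of a gene that is the same in every library, so the order is one of FPKM values. Bax stood highest, with no overlap with the range of any other member. Bcl2l11 and Bak1 followed and could not be ordered, since Bcl2l11 was the higher of the pair in 4 of 6 libraries and their ranges, 31.7 to 34.6 and 26.6 to 36.4, overlapped. Below them came Bid, Bbc3, Bad, Pmaip1, Bmf and Bik, each above the next in 6 of 6 libraries with no overlap of ranges. Against all tested genes Bax was at the 86.9 percentile of mean FPKM, Bcl2l11 at 79.6, Bak1 at 78.1, Bid at 70.7, Bbc3 at 54.7, Bad at 41.3, Pmaip1 at 28.2 and Bmf at 7.03.

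The authors' deposited table, which holds a value per group and was scaled separately, lists Bbc3 at 17.6 FPKM (interval 14.7 to 20.4) in IL-15C and 20.6 (17.3 to 23.9) in IL-2C. The intervals of the groups overlapped in the authors' deposited table for all 9 genes. That table holds no test.

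The balance with the anti-apoptotic genes was examined as ratios of FPKM within a library, which do not depend on library scaling. Bcl2 had been seen to differ in these data before the ratios were chosen, so a ratio over Bcl2 is not independent of that. Bcl2 itself was at 20.4, 19.0 and 16.9 FPKM across IL-15C, against 9.96, 12.7 and 12.7 across IL-2C. The ratio of Bcl2l11 to Bcl2 was 1.55, 1.72 and 1.88 across IL-15C, against 3.47, 2.70 and 2.67 across IL-2C. All IL-15C ratios were lower, with geometric means 1.71-fold apart and a log2 difference of -0.77. The ratio of Bax to Bcl2 was 2.53, 2.45 and 2.70 against 5.07, 3.81 and 3.86, 1.64-fold apart. IL-2C replicate 1 had the highest of both ratios; without it the log2 differences were -0.65 and -0.58. The exact two-sided permutation p was 0.1 for each, the smallest that 3 against 3 libraries allow, and 0.2 when adjusted over the 4 ratios.

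Ratios over Mcl1 did not part the groups. Mcl1 was at 127 to 140 FPKM in IL-15C and 127 to 142 in IL-2C, above every pro-apoptotic member in every library. The ratio of Bcl2l11 to Mcl1 was 0.227, 0.257 and 0.242 across IL-15C, against 0.257, 0.241 and 0.266 across IL-2C (log2 difference -0.07, exact permutation p = 0.5). That of Pmaip1 to Mcl1 was 0.0450, 0.0466 and 0.0472 against 0.0465, 0.0421 and 0.0495 (log2 difference 0.01, exact permutation p = 0.8). Adjusted over the 4 ratios these were 0.667 and 0.8.

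**Figure D3:**
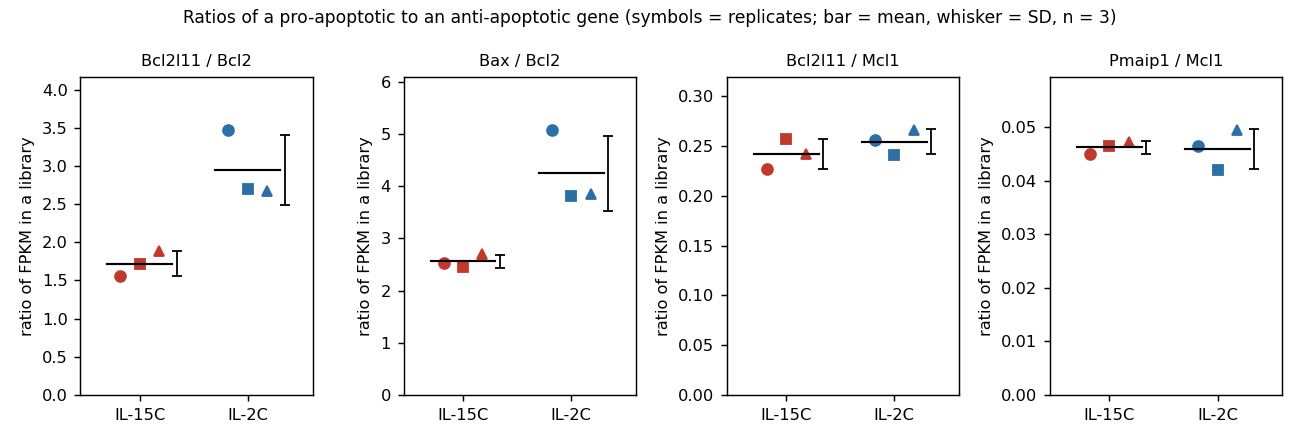
Ratio of the FPKM of a pro-apoptotic gene to that of an anti-apoptotic gene within each library (vertical axes from 0), with IL-15C in red and IL-2C in blue; circles, squares and triangles are replicates 1, 2 and 3, bars are means and whiskers are SD. Ratios over Bcl2 are lower in all 3 IL-15C libraries, from 1.55 to 1.88 against 2.67 to 3.47 for Bcl2l11, whereas ratios over Mcl1 overlap.

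Other genes of the mitochondrial death pathway were counted from lists. Of 6 tested anti-apoptotic family genes, 1 was higher in IL-15C, Bcl2, and 0 were lower. The call of Bcl2 ended without IL-2C replicate 2 and without the filter (highest limma adjusted p 0.0695). Bcl2l1, which encodes BCL-XL, had a log2 difference of 0.36 ± 0.10 (limma adjusted p = 0.0594), and Bcl2a1d, whose close copies share reads and make it uncertain, had 0.13 ± 0.09. The median over the 6 was 0.17, against -0.04 for all tested genes. Of 3 tested family genes of other or debated function, 0 were higher and 2 lower. These were Bnip3l (NIX), whose mean was 45.3 ± 0.923 FPKM for IL-15C (SD, n = 3) and 55.6 ± 1.57 for IL-2C, and Bnip3, with 3.21 ± 0.333 and 4.31 ± 0.274; their products mark mitochondria for removal by autophagy. Bcl2l13 had 0.01 ± 0.04. The call of Bnip3l ended without IL-2C replicate 2 (adjusted p = 0.0521) and without the filter, and that of Bnip3 ended after common median scaling, TPM rescaling, the replicate block, removal of the filter and in 5 of 6 omissions of a library. The effector-like Bok was at 0 to 0.0338 FPKM and the BH3-only gene Hrk was listed at 0 in every library.

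Downstream of the mitochondria, 0 of 9 genes for the apoptosome and released factors passed limma in either direction, with 2 at an unadjusted p under 0.05. The closest were Htra2, a released protease gene, at -0.20 ± 0.06, Diablo, whose product relieves caspase inhibition, at -0.15 ± 0.05, and Cycs, which encodes cytochrome c, at 0.26 ± 0.12. Among caspase inhibitor genes, Birc2 had -0.13 ± 0.04 and Cflar, an inhibitor of caspase-8 activation, 0.09 ± 0.04.

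Upstream, 15 regulators of BH3-only genes or proteins were tested, of which 1 was higher in IL-15C, the immediate early factor Egr1, and 0 were lower. Egr1 rose by 0.59 ± 0.12 but lost its call when any of the IL-2C libraries was left out and without the filter. Ddit3, which encodes the stress factor CHOP, had -0.14 ± 0.05 and the kinase gene Mapk8 -0.14 ± 0.06. Of 9 tested p53 target genes other than members, 0 passed limma in either direction and 3 had an unadjusted p under 0.05. Their signs were mixed, with Sesn1 at -0.14 ± 0.05, Sesn2 at 0.20 ± 0.08 and Zmat3 at 0.12 ± 0.05, and the list's median was 0.06 against -0.04 for all tested genes.

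The members' differences under each processing alternative are plotted for the 4 genes whose groups did not overlap. All 4 kept their direction under all 15 alternatives, which for groups without overlap is largely fixed by the values. Bcl2l11 passed under none of them, Bid under 2, Bak1 under 4 and Bbc3 under 12.

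**Figure D4:**
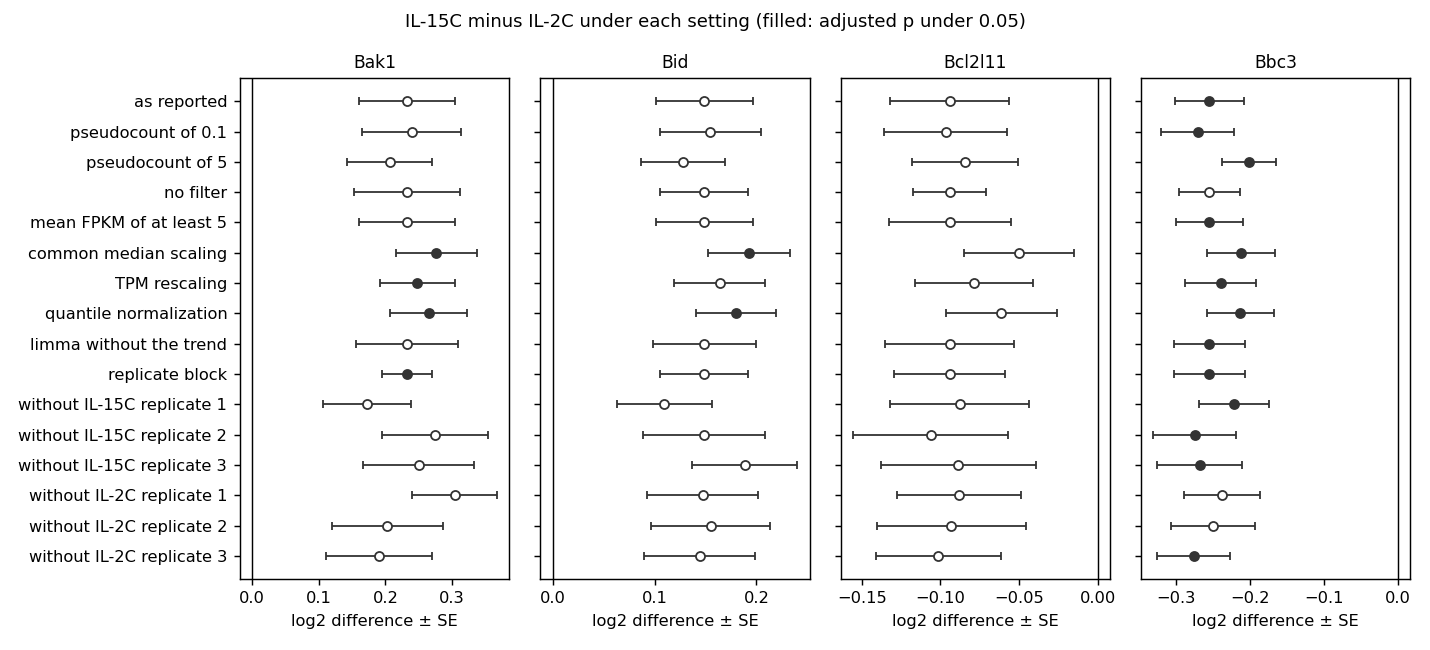
Log2 difference IL-15C minus IL-2C with its SE (horizontal axes) for Bak1, Bid, Bcl2l11 and Bbc3 as reported and under each of the 15 alternatives (rows); filled points have a limma adjusted p under 0.05. Bbc3 is filled in most rows but open where IL-2C replicate 1 or 2 was left out and where no filter was used; Bak1 is filled under the other scalings and the replicate block.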

How the data were processed

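RNA of sorted NK cells was sequenced by an Illumina protocol, per the labels. TopHat2 2.0.13, Cufflinks 2.2.1 and mm10 are named in the submitters' processing notes; no source used here names the annotation. Per the file headers, the authors deposited 1 table per library of FPKM values with interval bounds, and a table of group FPKM from Cuffdiff. Since FPKM are not counts, count models were not used.

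Rows of a repeated symbol were summed (no member was repeated), and 10 genes with a failed estimate were left out. Each bound was taken to lie 2 Poisson SD from its value, from which implied fragments follow; such intervals cover counting error only. The test was limma 3.58.1 with an intensity trend (R 4.3.3), two-sided, on log2(FPKM + 1), a scale that understates changes of low genes. The code was tested on simulated data. Groups and replicate numbers came from the titles. Members and lists were chosen with earlier results of these data known. The 9 members are all named; from each other list up to 3 genes with the smallest adjusted p are named, beside Bcl2, Mcl1 and the 3 genes most like the member with the smallest p. Bok, Hrk, Ncr1, Cd4, Cd8a, Cd8b1, Cd5, Cd6 and overlapping genes were named after their values were seen. The count for the caspase list is not reported here. Gene positions are those of the files, written 1-based; overlapping genes are from GENCODE M21. Tables and exact tests were made in Python 3.11.15 (pandas 2.3.3, scipy 1.17.1), plots with matplotlib 3.10.9. Alternatives were pseudocounts of 0.1 and 5, no filter, a mean of at least 5 FPKM, 3 scalings, no trend, a replicate block and leaving out each library; ratios were also taken with 1 added to both genes.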

Additional observations from a re-analysis of the deposited data

How the results depend on the processing

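Over all genes, 169 were higher and 464 lower in IL-15C. Without the filter these numbers were 6 and 9, after common median scaling 325 and 207, after quantile normalization 307 and 269, and with libraries left out in turn 14 to 175 and 15 to 572. The share of calls that were higher was 26.7%, against 61.1% after common median scaling, 53.3% after quantile normalization and 38.5% after TPM rescaling. The number of BH3-only genes called, 1 as reported, was 0 without the filter, 2 after common median scaling, 2 after quantile normalization and 0 to 1 over omissions, the 0 being with IL-2C replicate 1 or 2 left out. That of effectors, 0 as reported, was 1 after common median scaling, TPM rescaling, quantile normalization and with the replicate block, and 0 in every omission.

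Bbc3 kept its log2 change of -0.26 without the filter but not its call, and over omissions it ranged from -0.28 to -0.22. Bak1 passed at 0.28 after common median scaling, 0.25 after TPM rescaling, 0.26 after quantile normalization and 0.23 with the replicate block (limma adjusted p = 0.0323); over omissions it ranged from 0.17 to 0.30. Bid passed at 0.19 after common median scaling and 0.18 after quantile normalization, and over omissions it ranged from 0.11 to 0.19. Among the omissions, Bak1 and Bid had their smallest differences without IL-15C replicate 1. Values near 0 changed sign: Bax was 0.00407 after common median scaling; Pmaip1 was 0.0285 after common median scaling, 0.00315 after TPM rescaling and 0.0348 after quantile normalization, and -0.0307 to 0.0125 over omissions, among them 0.00173 without IL-2C replicate 3; Bad was -0.0742 to 0.0934 over omissions, among them -0.00807 without IL-15C replicate 2. The log2 ratio of Pmaip1 to Mcl1 was -0.0528 to 0.0650 over omissions. Bmf has no value at a mean of at least 5 FPKM. Over all tested genes, same-numbered libraries did not deviate together (correlations -0.0292, -0.156 and -0.0244). No library correlated best with its own number, so the numbers were not taken as pairs. The block gave 171 higher and 346 lower genes.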
